A study of Sus scrofa with 3 samples.

Results

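HMOX1, CD163, HP and ALAS2 are genes of heme and hemoglobin turnover, and they were described here in lung tissue of minipigs after ischemia-reperfusion of the left lung. The members are the probe sets (groups of short probes that together read 1 transcript) to which the platform's annotation gives 1 of these symbols and no other. This gave 5 probe sets for 4 genes, out of 23935 probe sets and 6765 named genes on the array. CD163 is read by 2 probe sets and each of the other genes by 1. The genes were chosen with their values on these same arrays known, so their differences from sham are a description and lend no weight to one another.

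Hemoglobin set free from red blood cells is bound in plasma by haptoglobin, the product of HP. The complex is taken up by CD163, a scavenger receptor of monocytes and macrophages, and the heme it carries is opened by heme oxygenase 1, the product of HMOX1, into biliverdin, iron and carbon monoxide. ALAS2 stands at the opposite end of heme metabolism, as the erythroid form of the enzyme that starts heme synthesis. In lung, alveolar macrophages are a known site of both CD163 and heme oxygenase 1.

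Each of 3 groups was measured on 1 Affymetrix porcine array. The operated lung is the left lung of a minipig with ischemia-reperfusion, made by closing the left pulmonary artery for a time and reopening it, with the bronchus untouched and the lung still ventilated. The non-operated lung is the opposite, right one in a minipig with that procedure. The sham lung was taken from a minipig with a sham operation. The animals are labelled as kept free of specific pathogens, and the labels name no breed, age or sex and no length of occlusion or reperfusion. They also do not say whether both lungs with the procedure came from 1 animal, or whether the sham sample was a left or a right lung.

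With 1 array per group, no difference below has a replicate check, an SD between animals or a p-value. Signals are on the log2 scale, where a difference of 1 is 2-fold. The floor for low signals is each array's median over all 23935 probe sets, 7.31 in the operated, 7.31 in the non-operated and 7.33 in the sham lung. A comparison takes in the genes with a signal over the floor on either of its arrays, and a ratio with 1 side at the floor is a lower bound. The lung marker SFTPC, which encodes surfactant protein C, was at 14.52, 14.56 and 14.44 on the operated, non-operated and sham arrays. The Y-linked gene EIF1AY, which encodes a translation initiation factor, gave signals of 10.89 in the operated lung and 10.68 in the non-operated lung, against 0.69 in the sham lung. Every difference from sham is thus also a difference between animals that differ in this Y-linked signal, and its part in the values below was not tested.

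The 4 genes had higher signals in the operated lung than in the sham lung, and higher signals in the non-operated lung than in the sham lung. HMOX1 differed most by fold, CD163 next, and HP less, while for ALAS2 only a lower bound of the fold can be given. All 4 were at least 2-fold higher in both comparisons. The background for that count is 441 of 5097 genes, or 8.65%, at least 2-fold higher in the operated lung, and 458 of 5113 genes, or 8.96%, in the non-operated lung. In the other direction 8.79% and 8.55% of genes were at least 2-fold lower. Because the genes were picked on these contrasts, nothing is read from 4 of 4.

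**Figure D1:**
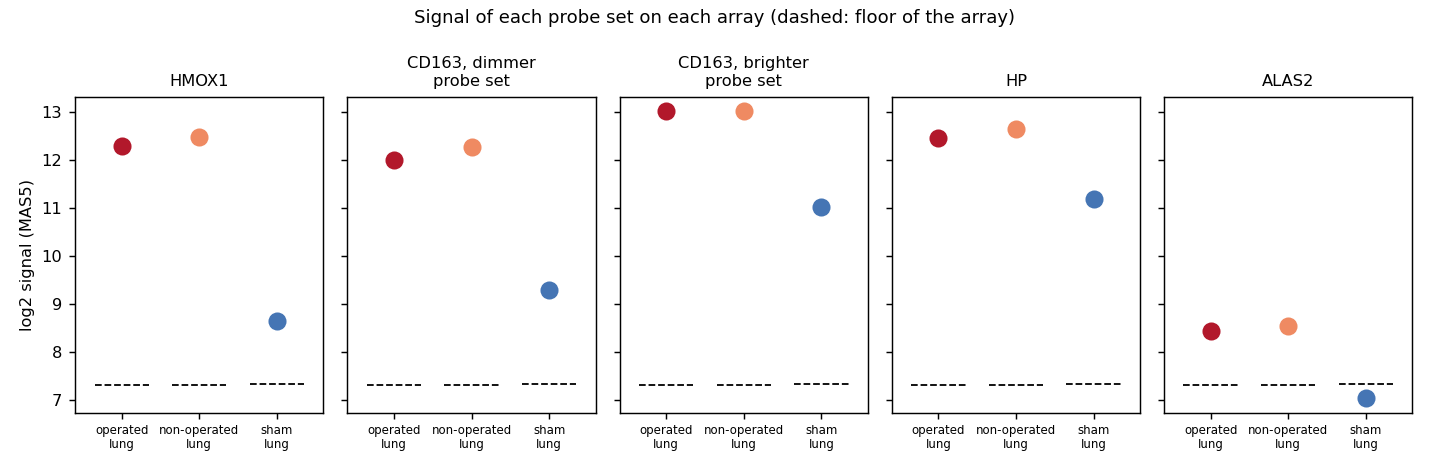
Log2 signal of the 5 probe sets of HMOX1, CD163, HP and ALAS2 (vertical axis) on the operated, non-operated and sham arrays (horizontal axis). Each point is 1 array and each dashed line is that array's floor. Every probe set is lowest in the sham lung, and ALAS2 in the sham lung, at 7.04, is the only point under its floor.

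HMOX1 is the inducible heme oxygenase, and its transcript is known to respond to heme, oxidants and inflammation. Its log2 signal was 12.29 in the operated lung and 12.47 in the non-operated lung, against 8.65 in the sham lung. On the linear scale these are 5015, 5681 and 401 signal units. The sham lung was the low array, 1.32 above its floor on the log2 scale, whereas the operated and non-operated lungs lay 4.98 and 5.16 above theirs. The log2 ratio against sham was 3.65 in the operated lung, a 12.5-fold difference, and 3.83 in the non-operated lung, a 14.2-fold difference. HMOX1 ranked 6 from the highest of 5097 genes in the operated lung and 5 of 5113 in the non-operated lung. The gene has a single probe set, of the type whose probes can match more than 1 transcript, so no second reading of it exists on these arrays. In tissue RNA such as this, more cells that make a transcript and more transcript per cell cannot be told apart.

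CD163 carries haptoglobin-hemoglobin complexes into macrophages. Its brighter probe set had log2 signals of 13.02 in the operated lung and 13.01 in the non-operated lung, against 11.02 in the sham lung. Its dimmer probe set was at 11.996 in the operated lung and 12.26 in the non-operated lung, against 9.29 in the sham lung. Both probe sets placed the sham lung lowest, but by unequal amounts. The ratio in the operated lung was 2.01 (4.02-fold) from the brighter and 2.71 (6.53-fold) from the dimmer probe set, a mean of 2.36 ± 0.49 (SD over 2 probe sets, not over animals). In the non-operated lung the ratios were 1.996 (3.99-fold) and 2.97 (7.86-fold), a mean of 2.49 ± 0.69 (SD over 2 probe sets). Over the 1004 genes with several counted probe sets, the pooled SD of the log2 ratio within a gene was 0.44 in the operated comparison, and 20.5% of these genes spread at least as widely as CD163. In the non-operated comparison the pooled SD was also 0.44, over 1008 genes, and 10.3% spread at least as widely. The 4-fold level thus runs through the CD163 readings, with the brighter probe set of the non-operated lung just under it and the dimmer one above. At least 4-fold higher were 1.63% of genes in the operated lung and 1.6% in the non-operated lung.

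HP encodes haptoglobin, an acute phase protein that is made mainly by the liver and is also found in granules of neutrophils. Its log2 signal was 12.46 in the operated lung and 12.64 in the non-operated lung, against 11.18 in the sham lung. In signal units these are 5641, 6396 and 2324. The sham lung was again lowest, but unlike HMOX1 the gene was already far above the floor there, by 3.85. The ratio was 1.28 (2.43-fold) in the operated lung and 1.46 (2.75-fold) in the non-operated lung. Of all counted genes, 5.36% had a ratio at least as high in the operated lung and 4.19% in the non-operated lung.

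ALAS2, whose product condenses glycine with succinyl-CoA in red cell precursors, lay nearest the floor of the 4 genes. It was at 8.43 in the operated lung and 8.54 in the non-operated lung, against 7.04 in the sham lung, where it lay 0.29 below the floor. The sham value can therefore be read only as at or under the floor. Set to the floor, it gave ratios of at least 1.11 (2.15-fold) in the operated lung and at least 1.21 (2.32-fold) in the non-operated lung. ALAS2 is a gene of the X chromosome, and the arrays differ in the Y-linked signal given above. Its signal was lowest on the sham array, where the Y-linked signal was also lowest, and any link was not tested.

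The operated and non-operated lungs were close to each other in all 4 genes. Of 4944 genes counted in that comparison, 3 were at least 2-fold higher in the operated lung, 0.0607%, and 9 were at least 2-fold lower, 0.182%. The count among HMOX1, CD163, HP and ALAS2 was 0 in either direction. The log2 ratio of operated to non-operated lung was -0.18 for HMOX1, 0.01 for the brighter and -0.27 for the dimmer CD163 probe set, -0.18 for HP and -0.11 for ALAS2. The middle 95% of all genes ran from -0.56 to 0.50, with an SD over genes of 0.26, and each of these values lies inside that range. The occluded side was thus not set apart from the other side by these genes on these arrays, and 1 array per side gives no interval for the difference.

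The other heme degradation genes on the array were HMOX2, BLVRA and POR. HMOX2, the constitutive heme oxygenase, was at 8.84 in the operated lung, 9.13 in the non-operated lung and 8.48 in the sham lung. Its ratio against sham was 0.36 in the operated lung and 0.65 in the non-operated lung, so the 2-fold difference was seen for the inducible and not for the constitutive form. BLVRA, which reduces biliverdin to bilirubin, was at 8.03 in the operated lung, 7.33 in the non-operated lung and 7.25 in the sham lung, and the last is below the floor. Its ratio was at least 0.70 in the operated lung and at least 0.01 in the non-operated lung. POR, the reductase that passes electrons to heme oxygenase and to cytochromes P450, was at 9.64 and 9.81 in the operated and non-operated lungs, against 7.75 in the sham lung. POR was 3.72-fold higher in the operated lung and 4.18-fold higher in the non-operated lung. In each lung 1 of these 3 genes was past 2-fold upward and 0 downward, where 8.65% and 8.96% of all genes were past it upward. They had a median log2 ratio of 0.70 in the operated and 0.65 in the non-operated lung, beside -0.11 and -0.10 over all genes counted.

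Among scavengers, HPX, AMBP and ALB were also on the array. They encode hemopexin, which binds free heme, alpha-1-microglobulin, which binds heme and radicals, and albumin. All 3 were below the floor on every array, so that HP and CD163 were the only scavenging genes of the list with a measured difference.

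The operated lung had 7 counted genes for heme transport and binding, with 2 past 2-fold upward, 0 downward and a median of 0.26. Over all genes 8.65% were past 2-fold upward in the operated lung and 8.96% in the non-operated lung. FLVCR2, a membrane transporter related to the heme exporter FLVCR1, was at 10.13 in the operated lung and 10.14 in the non-operated lung, against 8.69 in the sham lung, ratios of 1.43 and 1.44. PGRMC1, a heme-binding membrane protein, was at 1.13 in the operated lung and 0.92 in the non-operated lung. In the non-operated lung the counts were 1 and 0 of 6 genes, and the median was 0.83. SLC46A1, at no less than 0.26 in the operated lung, was not counted in the non-operated lung, so these medians rest on unlike gene sets. The median ratio of operated to non-operated lung over the list was -0.01. ABCG2, which exports porphyrins, lay to the lower side within 2-fold at -0.41 in the operated and -0.32 in the non-operated lung.

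Heme synthesis beyond ALAS2 was represented by 8 counted genes, with 1 past 2-fold upward and 0 downward in each lung. That count is near the share over all genes, 8.65% in the operated and 8.96% in the non-operated lung, and nothing is read from it. The median was 0.24 in the operated and 0.29 in the non-operated lung. ALAS1, the form of the first enzyme used outside red cell precursors, was the higher one. Its brightest probe set read 10.33 in the operated lung and 10.30 in the non-operated lung, against 9.25 in the sham lung, ratios of 1.09 and 1.05. A dimmer ALAS1 probe set gave at least 0.25 in the operated lung and was below the floor in the other lungs, and another was below the floor on all arrays. FECH, which inserts iron into the finished ring, was at 0.76 and 0.78 in the operated and non-operated lungs. ALAD, the next enzyme after the ALAS step, was at -0.65 and -0.21, and the mitochondrial iron carrier SLC25A37 at -0.57 and -0.22.

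Heme degradation frees iron. The 10 counted genes for iron storage, uptake and export had 2 past 2-fold upward and 0 downward in each lung, and a median of 0.02 in the operated lung and -0.003 in the non-operated lung. The share of all genes past 2-fold upward was 8.65% and 8.96%. TF, which encodes the plasma iron carrier transferrin, was at 10.19 in the operated lung and 10.29 in the non-operated lung, against 7.84 in the sham lung, ratios of 2.35 and 2.45. The other TF probe set gave only 0.36 and 0.43, so the size of the TF difference depends on the probe set. SLC11A1, the metal transporter of phagocyte vacuoles, was at 9.31 and 9.45 in the operated and non-operated lungs, against 6.63 in the sham lung, below the floor. Its ratio was at least 1.98 in the operated lung and at least 2.12 in the non-operated lung. The ferritin chains differed little by their brightest probe sets. FTH1 was at 0.19 and 0.21 in the operated and non-operated lungs, and FTL at 0.23 and 0.29, while a dimmer FTL probe set gave 0.89 and 1.07. ACO1 was at -0.10 and -0.31 by its brightest probe set, but a dimmer one gave 0.94 and 0.88. PCBP2 was at 0.03 and -0.05, and a dimmer probe set gave 0.86 and 0.96, so values near 0 in this list depend in part on the probe set. TFRC, the transferrin receptor, and HAMP, the iron hormone hepcidin, were below the floor on every array.

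**Figure D2:**
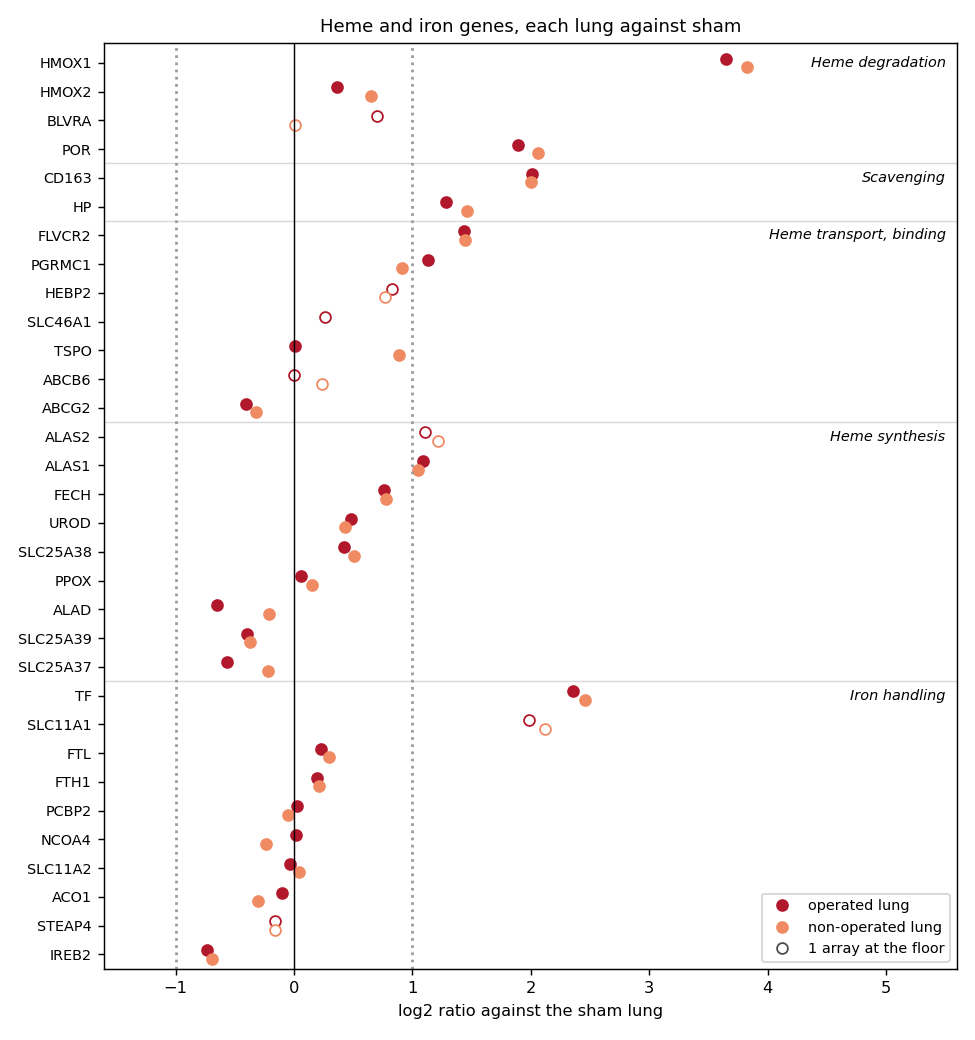
Log2 ratio (horizontal axis) of the operated and the non-operated lung against the sham lung for each counted heme and iron gene, grouped by role. Open points are ratios with 1 array at the floor, and dotted lines mark 2-fold. HMOX1 is farthest right at 3.65 and 3.83, its partner POR lies outside the 2-fold lines at 1.89 and 2.06, and HMOX2 and BLVRA lie inside them.

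Several transcriptional programmes are known to act on these genes. NRF2, a factor released by oxidants, drives HMOX1 together with a set of detoxifying enzymes. Of 13 counted NRF2 target genes other than HMOX1, 5 were at least 2-fold higher in the operated lung and 6 in the non-operated lung, with 0 lower in either, and medians of 0.76 and 0.97. Over all genes 8.65% and 8.96% were at least 2-fold higher. NQO1, a quinone reductase, was at 2.38 in the operated and 2.38 in the non-operated lung. SQSTM1, the autophagy receptor p62, was at 1.497 and 1.46, and TXNRD1, thioredoxin reductase, at 1.37 and 1.01. GCLM, the modifier subunit of the enzyme that starts glutathione synthesis, was at 0.07 in both lungs. GSR was below 0, at -0.16 in the operated and -0.25 in the non-operated lung, so members of the list were not uniform. ABCC2, GSTA1, GSTM3 and ME1 were below the floor on every array. Of 3 counted heme-responsive or stress-responsive regulators, 1 was past 2-fold upward and 0 downward in each lung, with medians of 0.69 and 0.95. ATF3 was at 1.78 in the operated and 1.79 in the non-operated lung, CREM at 0.69 and 0.95, and the heat shock factor HSF1 at -0.01 and -0.36. NFE2L2, KEAP1 and BACH1 had no singly named probe set and are not analysed here.

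CD163 and HP are known in human cells to be raised by glucocorticoids. Of 14 counted glucocorticoid-responsive genes, 9 were at least 2-fold higher in the operated lung, with a median of 1.48. In the non-operated lung it was 11 of 13, with a median of 1.54, and 0 were lower in either. The share over all genes is the 8.65% and 8.96% given above. The largest ratios were those of PDK4, at least 5.18 in the operated and 5.43 in the non-operated lung, and KLF9, 2.47 and 2.68. GADD45A lay on the lower side at -0.97 and -0.44. The list also included CEBPD at 2.26 and 2.40 and CEBPB at 1.54 and 1.498, which encode factors known to drive HP in liver. A part of glucocorticoids or of these factors in the HP and CD163 values was not tested. Of 16 other acute phase genes on the array, 6 were counted and the rest were below the floor on every array. Most of the counted genes lay on the same side as HP, but within 2-fold. Among these 6 genes 5 were above 0 in each lung, with medians of 0.42 and 0.47, beside -0.11 and -0.10 over all genes. In each lung 1 was past 2-fold to each side. ITIH3, an inhibitor chain bound to hyaluronan, had ratios of at least 2.17 and 1.58, while the serum amyloid gene SAA2 had ratios of -1.77 and -1.74. The acute phase glycoprotein ORM1 was at 0.44 and 0.27. A2M was at 0.35 and 0.45 by its brightest probe set, but a dimmer one gave -0.53 and -0.59, so its side depends on the probe set.

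Markers of the cells that could carry these transcripts differed as well, and their part in the values of HMOX1, CD163, HP and ALAS2 was not tested. Of 10 counted macrophage and monocyte markers other than CD163, 7 in the operated lung were past 2-fold upward and 1 downward, with a median of 1.28. In the non-operated lung the counts were 7 upward and 1 downward among 11, and the median was 1.25. Over all genes 8.65% and 8.96% were past 2-fold upward in the operated and non-operated lungs, and 8.79% and 8.55% downward. The summed signal of all 15 such markers on the array was 23846 units in the operated lung and 23912 in the non-operated lung, against 9821 in the sham lung. C1QC, a complement chain made by macrophages, was at 1.11 in the operated and 1.25 in the non-operated lung, and the mannose receptor MRC1 at 2.53 and 2.44. The costimulatory receptor CD86 was at -1.51 and -1.32, and FOLR2 at -0.15 and 0.15. CD14, ITGAM, SIGLEC1 and FCGR1A were below the floor on every array, and MARCO was over it only in the non-operated lung, at 7.35. The ratios of the brighter CD163 probe set, 2.01 and 1.996, lie between those of C1QC and MRC1. Those of the dimmer CD163 probe set, 2.71 and 2.97, lie above both, so the placement depends on the probe set.

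Beside HP, 3 of 4 counted neutrophil markers were at least 2-fold higher in each lung, against 8.65% and 8.96% of all genes. All 3 were calgranulins, S100A8, S100A12 and S100A9, the last at 3.16 and 3.45. The other counted marker, the Fc receptor gene FCGR3A, was at 0.08 and 0.18. The summed signal of 7 markers was 9332 in the operated lung and 11061 in the non-operated lung, against 3458 in the sham lung. The granule genes ELANE, LTF and MMP9 were below the floor on every array. Of 13 hepatocyte genes on the array, 10 were below the floor in every lung, including ALB, TTR, FGB and APOB. The 3 counted ones were TF, the retinol carrier RBP4 at no less than 1.82 in the operated and 2.35 in the non-operated lung, with its sham signal just under the floor, and APOA1 at 0.41 and 0.50.

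Few red blood cell and erythroid genes could be set beside ALAS2. Among 4 counted genes none in the operated lung was past 2-fold to either side, with a median of -0.46, and in the non-operated lung 0 were past it upward and 1 downward, with a median of -0.54. Over all genes 8.65% and 8.96% were past 2-fold upward in the operated and non-operated lungs, and 8.79% and 8.55% downward. The adult globin gene HBB was at 10.26 in the operated lung, 9.82 in the non-operated lung and 9.57 in the sham lung, ratios of 0.69 and 0.25. HBB was the 1 gene of these 4 with ratios above 0, and BNIP3L, a mitophagy receptor of maturing red cells, was at -0.08 and -0.19. BPGM, a red cell enzyme that sets the oxygen affinity of hemoglobin, was at -0.99 and -0.89, and the membrane skeleton gene EPB41 at -0.83 and -1.23. AHSP, the chaperone of alpha globin, and KLF1, an erythroid transcription factor, were below the floor on every array. The summed signal of the 8 genes was 7002 units in the operated lung and 6106 in the non-operated lung, against 8165 in the sham lung. BNIP3L was the largest part of it, at 3825, 3540 and 4037 units in the operated, non-operated and sham lungs. HBB ran the other way, at 1228, 902 and 758 units, so the sum is no measure of red cell content, which was not tested.

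Endothelial markers were higher as well, and lung epithelial markers in part. All 9 counted endothelial markers in the operated lung and 8 of 9 in the non-operated lung were at least 2-fold higher, with medians of 1.58 and 1.54. The share over all genes was 8.65% and 8.96%. The endothelial markers KDR, TIE1 and ENG were below the floor on every array. Of 11 lung epithelial markers 5 and 3 were higher, with medians of 0.90 and 0.77, while SFTPC was at 0.08 and 0.12. The platelet list rested on 2 counted genes, with PPBP higher by at least 3.86 and 4.08. ITGB3 was at -0.66 in the non-operated lung and at or below -1.10 in the operated lung, where its signal was under the floor.

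**Figure D3:**
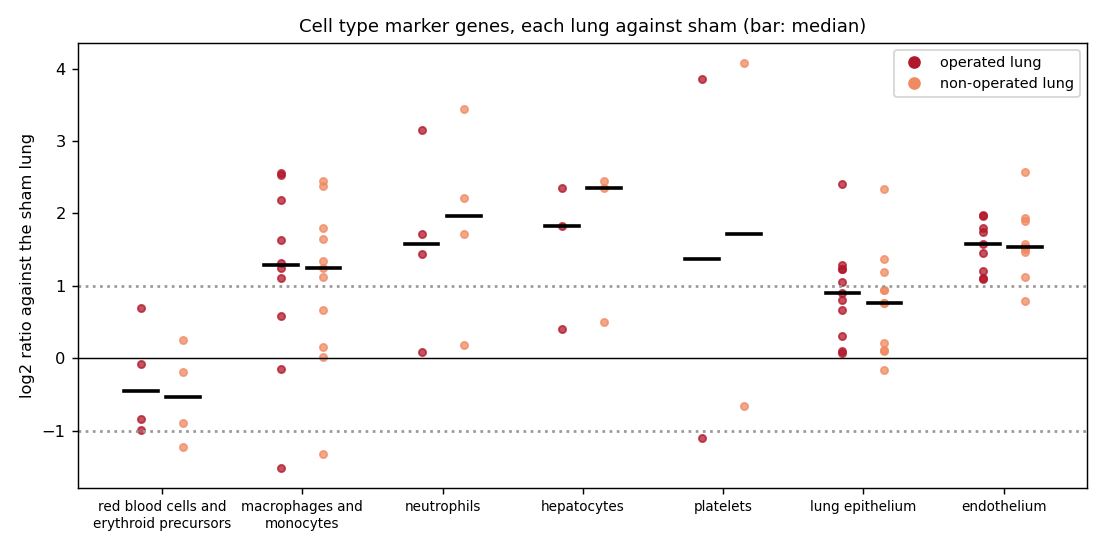
Log2 ratio (vertical axis) of each counted marker gene in the operated and the non-operated lung against the sham lung, by cell type (horizontal axis). Each point is 1 gene, bars are medians and dotted lines mark 2-fold. Macrophage markers centre near 1.28 and 1.25. The 4 counted red blood cell and erythroid genes centre at -0.46 and -0.54, with the globin gene HBB above 0 at 0.69 and 0.25.

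Genes with the most similar pattern were sought among 4489 genes above the floor on all 3 arrays, by the distance between their pairs of log2 ratios against sham. For HMOX1 the nearest were FMO1, a flavin monooxygenase, at a distance of 0.45, LOC100523909 at 0.48 and the oxidase gene DUOX2 at 0.58. For the brighter CD163 probe set they were the chemokine gene CCL4 at 0.009, CYB561, an electron-carrying cytochrome of vesicle membranes, at 0.03, and MXRA7 at 0.07. For HP they were GLUL, glutamine synthetase, at 0.03, LOC100524254 at 0.06 and STX11, a membrane fusion protein of leukocytes, at 0.07. HMOX1 had no neighbour as close as those of CD163 and HP, and its ratios rank among the highest of all genes. ALAS2, below the floor in the sham lung, was left out. These distances rest on 3 arrays and both ratios share the sham array, so they describe the arrays and no more.

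The ratios of the 4 genes were recomputed under other scalings, floors and probe set choices. HP stayed between 1.26 and 1.30 in the operated lung and between 1.43 and 1.48 in the non-operated lung. HMOX1 ran from 3.04 to 3.67 and from 3.22 to 3.84, and CD163 from 1.97 to 2.71 and from 1.96 to 2.97. ALAS2 ran from 1.07 to 1.39 and from 1.16 to 1.4999. The upper ALAS2 values come from settings whose floor, or lack of one, lets its sham signal stand as measured. With the floor at the 75th percentile ALAS2 was not counted.

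**Figure D4:**
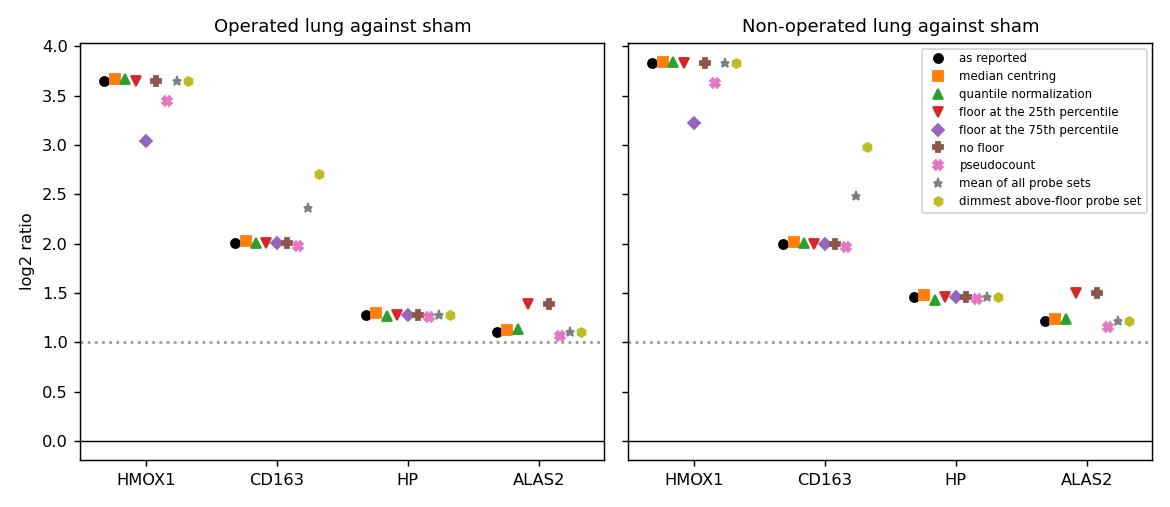
Log2 ratio (vertical axis) of HMOX1, CD163, HP and ALAS2 (horizontal axis) in the operated lung (left) and the non-operated lung (right) against the sham lung. Each symbol is 1 processing choice and the dotted line marks 2-fold. Every value shown lies above 1, and CD163 spreads with the probe set, from 1.97 to 2.71 in the operated lung.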

How the data were processed

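The deposited table holds 1 log2 signal per probe set and array, and the submitters' processing notes name MAS5 without its version or scaling target. MAS5 summarises a probe set's probes as a single value and scales arrays one at a time. The deposited log2 values were used as they stand. On the linear scale the mean signal trimmed by 2% at each end was 497.2, 497.0 and 496.4 for the operated, non-operated and sham arrays. No detection calls were used.

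Of 23999 probe sets, 64 reporter controls were left out. The platform's annotation gave 1 gene for 10069 probe sets, several for 198 and none for 13668. By gene identifier 9961 matched the RefSeq table of Sscrofa11.1, with 0 symbols changed. The probe set with the highest mean log2 signal stood for a gene. Values at or under an array's median were set to that median, and a gene was called higher or lower at 2-fold. Differences of log2 signals were computed with Python 3.11.15 and pandas 2.3.3, and the steps were tested on simulated data.

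The members, 9 pathway lists, 7 marker lists and the naming rule were chosen with earlier results of these data known. Named are the 4 genes, up to 6 list genes at least 2-fold from sham, fixed pathway partners, bright markers, and the 3 most similar genes per member. Other genes named, such as EIF1AY, GCLM, ABCG2, ALAD, SLC25A37, AMBP, ORM1, HAMP, GADD45A and the markers named for lying below the floor or on the lower side, were chosen after their values were seen. The same holds for A2M, ACO1, PCBP2, SLC46A1, GSR, ABCC2, GSTA1, GSTM3, ME1, FOLR2 and MARCO. The number of arrays limits the precision.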

Additional observations from a re-analysis of the deposited data

How the results depend on the processing

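The direction of HMOX1, CD163, HP and ALAS2 against sham was the same in all settings tried (scaling, floor, pseudocount, probe set) that counted the gene, and none dropped under 2-fold. A shift is named here when it exceeds the pooled SD between probe sets of a gene, 0.44 against sham and 0.23 between lungs. With the floor at the 75th percentile HMOX1 was at least 3.04 in the operated and at least 3.22 in the non-operated lung, because its sham signal then lies under the floor, and ALAS2 was not counted. With the dimmer probe set CD163 was 2.71 and 2.97 against sham and -0.27 between lungs, where the sign turned from 0.01, and with the mean of its probe sets 2.49 in the non-operated lung. At a 4-fold threshold 2 of the 4 genes remained higher in the operated lung (1.63% of all genes) and 1 in the non-operated lung (1.6%), since CD163 stands at the threshold. Of the pathway genes other than these 4, 22 of 64 in the operated lung were past 2-fold upward and 1 downward, and 24 of 62 and 1 in the non-operated lung. The share of all genes past 2-fold upward was 8.65% and 8.96%. At 4-fold the pathway counts became 7 and 0 in the operated lung and 9 and 0 in the non-operated lung. The number lower became 3 with the floor at the 25th percentile in the operated lung, 8 and 6 without a floor, and 0 and 0 with the dimmest counted probe set. Between lungs it was 0 in each direction, but 3 higher and 4 lower without a floor and 1 lower with the mean of probe sets. Single pathway genes were recomputed only where they were at least 2-fold apart in some comparison. A change of sign against sham was therefore unlikely from the start, and genes near 0 were not tried. Of 610 recomputed ratios of these genes, 59 shifted. The sign changed in 0 of those against sham and in 8 of those between lungs, the largest of which was 0.36 as reported. Of 360 list medians, 328 did not shift and 20 changed sign. Apart from 28 that shifted, 4 more did so while changing sign from a median past 2-fold. These 4 were the platelet median in the operated lung, 1.38 as reported but -0.65 with the floor at the 25th percentile and -0.78 without a floor, and the hepatocyte medians, 1.82 and 2.35 as reported but -0.11 in the operated and -0.33 in the non-operated lung without a floor. Both lists hold few genes above the floor. Under quantile normalization 5 of the 9 most similar genes were the same. No paired analysis was possible because each group has 1 array.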

Other observations

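A few genes around heme handling differed more between the operated and the non-operated lung than HMOX1, CD163, HP and ALAS2 did. They were picked after their values were seen. TSPO, a porphyrin-binding protein of the outer mitochondrial membrane, had 1249 signal units in the operated lung and 2297 in the non-operated lung, a log2 ratio of -0.88, and 0.485% of 4944 genes differed at least as far in either direction. The sham lung, at 1244 units, was close to the operated one. PGD, an NRF2 target of the pentose phosphate pathway, had 867 units in the operated lung and 1346 in the non-operated lung, a log2 ratio of -0.63 (2.67% of genes at least as far). BLVRA ran the other way, with 261 units in the operated lung and 161 in the non-operated lung, a ratio of 0.69 (1.88%), but its non-operated signal lies at the edge of the floor. For scale, the calgranulin S100A8 was at -0.77 (1.13%) and the surfactant gene SFTPB at 1.13 (0.182%). TSPO, PGD, S100A8 and SFTPB are each read by 1 probe set and 1 array per side, with no replicate check.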
